A study of Mus musculus with 9 samples.

Results

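The genes described here encode peptidases, actin-bundling and linker proteins, cadherins and prominins of the brush border, the carpet of microvilli on the apical face of kidney proximal tubule cells. They were 10 genes named by symbol (Prom1, Prom2, Anpep, Dpp4, Mme, Ggt1, Vil1, Ezr, Cdhr2 and Cdhr5), and all 10 were found among the 54838 genes of the deposited table. Their RNA was measured by sequencing in 9 libraries of kidney cells from CD1 mouse embryos at E18.5 (embryonic day), in 3 groups of 3. The cells had been stained with an antibody to CD133 (prominin-1, the product of Prom1), sorted for that stain, and the labels call them proximal tubule cells. Controls carried Tsc1 fl/fl with no Cre listed, although their titles say wild type, and came from dams given vehicle (labelled DMSO). Mutants carried Six2 Cre and Tsc1 fl/fl and came from dams given either vehicle or rapamycin. Injections were every other day from E12.5 to E16.5, with rapamycin at 0.2 mg/kg. Tsc1 encodes hamartin, which holds back the growth kinase complex mTORC1, and rapamycin inhibits that complex. Six2 Cre acts in nephron progenitors, whose descendants form the nephron epithelium, whereas collecting duct and stroma come from other precursors. Tsc1 was homozygous floxed in every group, and controls treated with rapamycin are not analysed here. The labels number the replicates without saying whether a replicate is 1 embryo or a pool, so p-values measure only the spread between libraries, which may be technical.

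Brush border peptidases cut peptides in the filtrate into amino acids and dipeptides, which the proximal tubule takes up. Beneath the membrane each microvillus holds a bundle of actin filaments that villin and related proteins cross-link and that ezrin ties to the membrane. Protocadherins at the tips of neighbouring microvilli bind each other and space the microvilli evenly, and prominins sit in membrane protrusions.

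The annotated promoters are shown first for Anpep, the member whose RNA passed the test described below, for Prom1, whose protein defined the sort, and for Cdhr2, the member with a match to a half-site of HNF1, a transcription factor of the proximal tubule. Each window runs from 250 bases before to 50 bases after a RefSeq start (GRCm38.p6) and is written 5′ to 3′ along the gene, here on the minus strand at chr7:79848161-79848460 for Anpep, on the minus strand at chr5:44101687-44101986 for Prom1 and on the plus strand at chr13:54701213-54701512 for Cdhr2. Capitals mark GC boxes (GGGCGG) and the HNF1 half-site (GTTAAT), searched on both strands.

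Anpep: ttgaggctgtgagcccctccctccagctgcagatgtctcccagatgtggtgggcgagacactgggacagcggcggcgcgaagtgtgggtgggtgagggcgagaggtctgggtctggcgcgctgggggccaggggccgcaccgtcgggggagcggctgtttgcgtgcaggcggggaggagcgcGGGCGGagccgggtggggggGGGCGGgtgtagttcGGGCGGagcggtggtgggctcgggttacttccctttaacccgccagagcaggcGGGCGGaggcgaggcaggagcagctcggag

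Prom1: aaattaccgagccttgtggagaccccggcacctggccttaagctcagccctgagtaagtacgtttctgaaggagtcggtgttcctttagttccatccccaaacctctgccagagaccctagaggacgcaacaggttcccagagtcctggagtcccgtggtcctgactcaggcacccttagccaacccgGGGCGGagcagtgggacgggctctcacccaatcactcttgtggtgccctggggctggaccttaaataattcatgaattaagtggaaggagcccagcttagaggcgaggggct

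Cdhr2: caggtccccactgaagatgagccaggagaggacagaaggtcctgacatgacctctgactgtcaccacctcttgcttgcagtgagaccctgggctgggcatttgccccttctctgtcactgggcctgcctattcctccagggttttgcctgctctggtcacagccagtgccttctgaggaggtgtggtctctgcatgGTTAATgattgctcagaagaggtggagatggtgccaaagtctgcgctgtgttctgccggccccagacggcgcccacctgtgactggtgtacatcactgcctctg

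The Anpep window held 4 GC boxes, which began at bases -68, -48, -33 and 21 from the start, and its G and C content was 72.3%. The Prom1 window held 1, at -62, with 57.0% G and C, and the Cdhr2 window held its HNF1 half-site at -54. RefSeq gave 16 windows for the 10 members, because Prom1, Mme and Ggt1 have several starts. GC boxes were in 10 of these 16 windows, in 7 of the 10 members, and in 35.7% of all 32851 windows searched. The HNF1 half-site was in 1 of the 16 and in 7.10% of all windows. The longer HNF4 sequence CAAAGTCCA was in 0 of the 16 and in 0.475% of all, the E-box CACGTG in 1 of 16 and 7.15%, and the TATA box TATAAA in 2 of 16 and 13.6%. No match of 1 motif overlapped a match of another in these 16 windows. These matches describe letters only. Of the 6 Anpep transcripts in GENCODE M21, 3 start within 50 bases of the RefSeq start, and the 5′ end of the annotated gene lies 12849 bases further upstream. Of the 19 Prom1 transcripts, 0 start within 50 bases of the start of the window shown and 3 within 50 bases of the other RefSeq start, whose window holds 0 GC boxes.

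Library totals ranged from 23372093 to 32669791 counts, and 25808 to 27006 genes had at least 1 count per library. Values below are normalized counts, the raw count divided by 1 size factor per library. Control 1 and mutant rapamycin 2 had 6.34% and 3.73% of their counts on 3 genes that overlap ribosomal RNA (Gm42418, AY036118 and Gm26917), against 0.473% to 1.49% in the other 7 libraries. Control 1 also had 0 counts of the Y-linked gene Ddx3y, against 448 to 1415 in the other 8. Xist, an RNA of the inactive X chromosome of female cells, had 63821 counts in control 1 and 7701 to 50781 in the other 8. Those 8 libraries thus held RNA of both sexes, and control 1 showed that of females only. Whether this came from pooling of embryos was not tested. The sort label was set against marker genes. Markers of the proximal tubule were present in the controls, such as the endocytic receptor gene Lrp2 at 621 and the transcription factor gene Hnf4a at 781 normalized counts per kb of exon. Stromal collagen RNA was more abundant per kb, with Col1a1 at 5466, and podocyte, leukocyte and endothelial markers were also present, so the libraries held RNA of several cell types. The levels below are therefore those of the sorted mixture, in which fewer cells of a type and less RNA per cell cannot be told apart. Tsc1 RNA counted over the whole gene differed by -0.07 log2 between mutant and control vehicle libraries (limma adjusted p = 0.962), and since no source used here names the exons removed, this count does not check the deletion.

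Per kb of exon, Ezr had the highest level of the 10 genes in the controls and Prom2 the lowest. Ezr, which encodes ezrin, the linker of actin to the membrane, stood at 2565 ± 419.8 normalized counts per kb (SD, n = 3), and 98.3% of the 19651 tested genes with an exon length were lower. Anpep followed at 824 ± 8.96, then Dpp4 at 676 ± 86.9, Ggt1 at 586 ± 42.2, Prom1 at 380.4 ± 43.6 and Mme at 356 ± 77.9. Vil1 stood at 188 ± 17.9, Cdhr2 at 101 ± 27.2, Cdhr5 at 72.3 ± 26.1 and Prom2 at 2.85 ± 0.829, and 5.34% of genes were lower than Prom2. Ranges overlapped between the neighbours Dpp4 and Ggt1, Prom1 and Mme, and Cdhr2 and Cdhr5, and the other neighbours in this order did not overlap. In the mutant vehicle libraries Anpep stood below Dpp4 and Ggt1, at 502 ± 61.6 per kb, and its range overlapped those of its neighbours Ggt1 and Prom1. In the mutant rapamycin libraries it was again next to Ezr, at 834 ± 27.0, although its range then overlapped that of Ggt1.

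**Figure D1:**
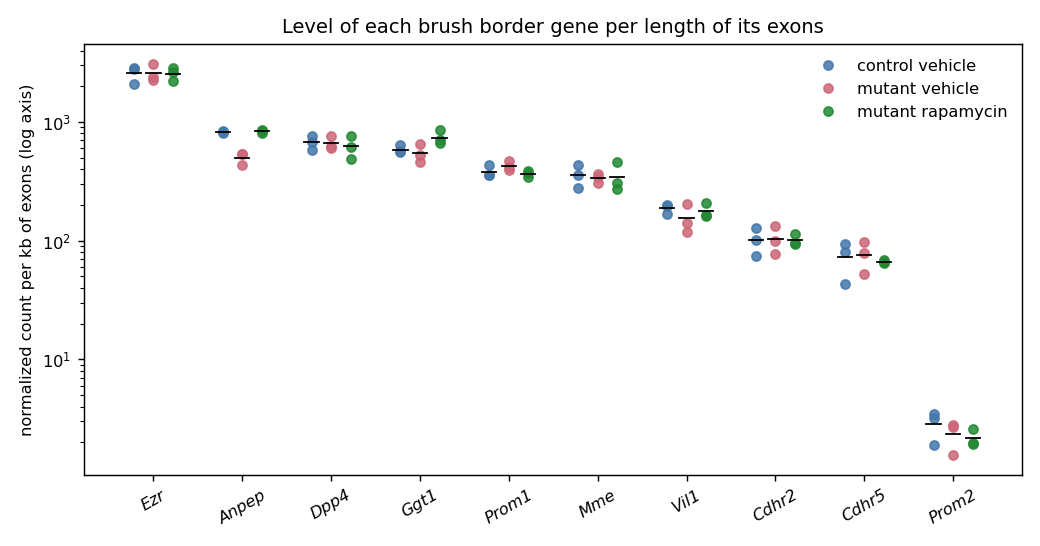
Normalized count per kb of exon (log axis) of each of the 10 genes in every library, coloured by group, with the group mean as a black bar. Ezr is highest in all 3 groups, Prom2 lowest, and the mutant vehicle points of Anpep lie near 502 per kb, below those of both other groups.

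The question of the first comparison was how brush border RNA differed after loss of Tsc1 from the Six2 lineage. Of the 10 genes, Anpep fell and the other 9 did not pass the test (limma on log2(normalized count + 1), called at an adjusted p under 0.05 after Benjamini-Hochberg adjustment over the 19656 genes tested). Over all genes tested 1.42% passed in this comparison, and 0.366% passed as lower. All 10 genes passed the filter on low values, a mean normalized count of at least 5. Anpep was also the 1 member whose groups did not overlap, beside 13.3% of all genes tested. The median log2 fold change of the 10 was -0.04, beside -0.01 over all genes tested.

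Anpep encodes aminopeptidase N (CD13), which removes amino acids one at a time from the N-terminal end of peptides (ENSMUSG00000039062, chromosome 7, 79821803 to 79861059, minus strand, GRCm38). It had 3368, 3441 and 3415 normalized counts in control 1, 2 and 3. It had 2229, 1782 and 2217 with vehicle in mutants and 3539.8, 3478 and 3323 with rapamycin. Each mutant vehicle library was below each control and each rapamycin library, while the control and rapamycin ranges overlapped. Group means were 3408 ± 37.1, 2076 ± 255 and 3447 ± 112 (SD, n = 3). Between mutant and control vehicle libraries Anpep fell by 0.72 ± 0.11 log2 (SE, 95% interval -0.97 to -0.48, limma adjusted p = 0.0100), which is 0.606 times the control level. The adjusted p was 0.0596 with only the 2 groups compared in the fit, 0.0579 without control 2 and 0.0637 without mutant vehicle 2, so the call was lost there, with a fold change between -0.78 and -0.62 over all 19 alternatives. Without control 1, Anpep passed in this comparison (-0.73 log2, limma adjusted p = 0.0219), and without both control 1 and rapamycin 2 the adjusted p was 0.0383. The authors' deposited table gives a log2 fold change of -0.72 with an adjusted p of 1.24e-06.

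The ratio of Anpep to another member within a library does not depend on the scaling. The count of Anpep divided by that of Prom1 was 1.32, 1.11 and 1.34 in the controls, 0.740, 0.629 and 0.659 in mutants given vehicle and 1.44, 1.25 and 1.24 in mutants given rapamycin. The mutant vehicle ratios lay below all others. The same separation of mutant vehicle libraries from both other groups was seen for the ratios of Anpep to Dpp4, Mme and Ezr. The ratio to Ggt1 was 1.58 to 1.82 in the controls, 0.997 to 1.24 in mutants given vehicle and 1.19 to 1.57 in mutants given rapamycin. By this ratio the mutant vehicle libraries lay below the controls and overlapped the rapamycin libraries, and the rapamycin libraries also lay below the controls. The ratio to Vil1 overlapped between all 3 groups. Since Anpep was taken for these ratios after its fall was known, they are given as a description with no test.

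**Figure D2:**
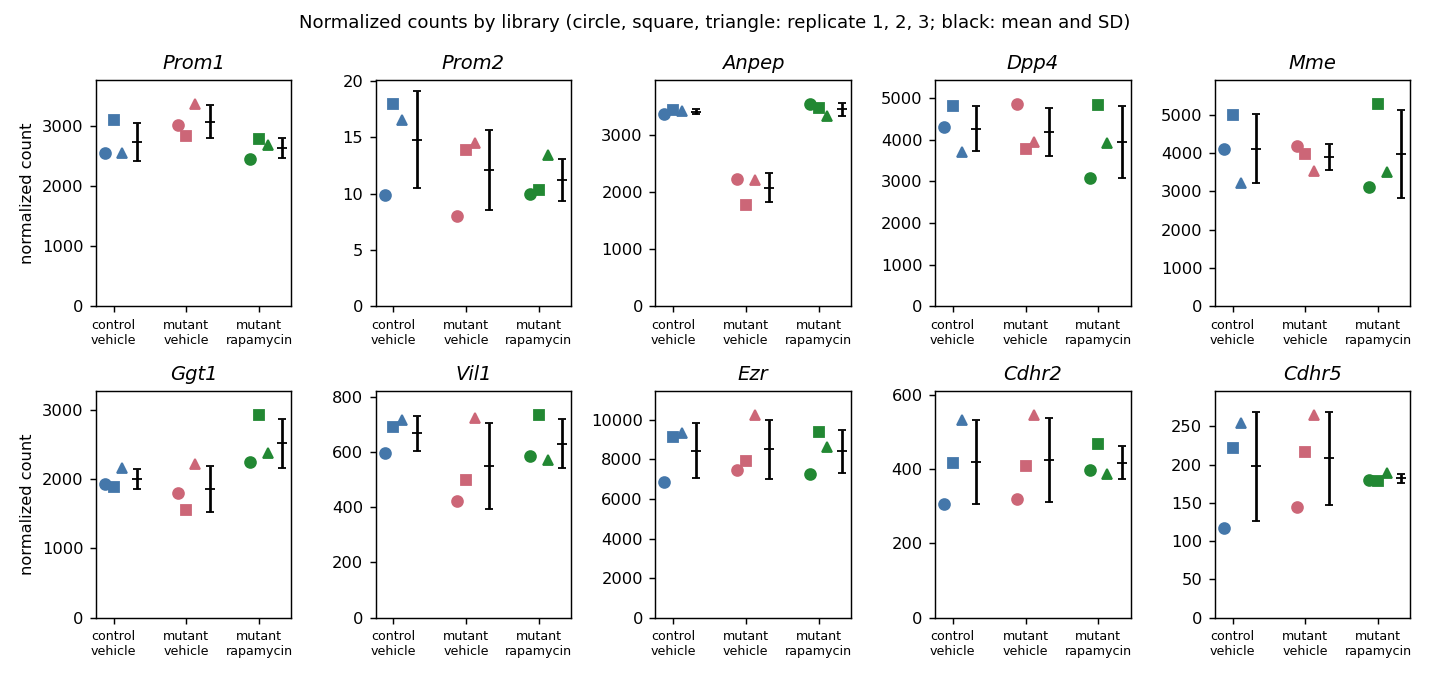
Normalized count of each of the 10 genes in every library, by group, with replicate 1, 2 and 3 as circle, square and triangle and the mean and SD (n = 3) in black. The mutant vehicle libraries of Anpep, 1782 to 2229, lie below all 6 others, and Ezr, Vil1, Cdhr2 and Cdhr5 have their lowest circle and highest triangle in both vehicle groups.

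Dpp4 and Mme are the other abundant peptidases. Dpp4 encodes dipeptidyl peptidase 4, which removes dipeptides behind proline or alanine (ENSMUSG00000035000, chromosome 2, 62330073 to 62412231). It had 4304, 4801 and 3704 normalized counts in the controls, 4859, 3785 and 3939 in mutants given vehicle and 3086, 4831 and 3915 in mutants given rapamycin. An antisense gene, Gm13561, shares 232 exon bases with Dpp4 and has no normalized count. The 3 groups overlapped, and the mutant to control difference was -0.03 ± 0.17 log2 (SE, 95% interval -0.41 to 0.35, limma adjusted p = 0.990). Mme encodes neprilysin, an endopeptidase that podocytes also carry (ENSMUSG00000027820, chromosome 3, 63241537 to 63386030). Its counts were 4109, 5006 and 3208 in the controls, 4186, 3978 and 3524 in mutants given vehicle and 3126, 5279.5 and 3517 in mutants given rapamycin. Mme also overlapped between all groups, with a mutant to control difference of -0.06 ± 0.20 log2 (95% interval -0.51 to 0.39, adjusted p = 0.979). In rapamycin library 2 both genes had their highest count of the group, and in rapamycin library 1 their lowest.

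Ggt1 encodes gamma-glutamyltransferase 1, which splits glutathione at the cell surface (ENSMUSG00000006345, chromosome 10, 75561604 to 75586200). It had 1937, 1895 and 2162 normalized counts in the controls and 1795, 1558 and 2222 in the mutant vehicle libraries, which overlap. The rapamycin libraries, at 2249, 2923 and 2383, were above all 6 vehicle libraries. The mutant to control difference was -0.12 ± 0.15 log2 (SE, 95% interval -0.45 to 0.21, limma adjusted p = 0.918). Against mutant vehicle the rapamycin libraries differed by 0.44 ± 0.15 (95% interval 0.11 to 0.77), with an unadjusted p of 0.0129 and an adjusted p of 0.270 (limma), so Ggt1 did not pass. Against the controls the difference was 0.33 (95% interval -0.00 to 0.66, limma adjusted p = 0.290).

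Prom1, the gene of the sort marker, encodes a membrane protein of cell protrusions that binds cholesterol (ENSMUSG00000029086, chromosome 5, 43993620 to 44102032). It had 2543, 3090.5 and 2555 normalized counts in the controls, 3011, 2833 and 3362 in mutants given vehicle and 2453, 2773 and 2677 in mutants given rapamycin. The mutant vehicle libraries overlapped the controls and were above all rapamycin libraries. The differences were 0.17 ± 0.12 log2 for mutant to control vehicle (SE, 95% interval -0.09 to 0.43, limma adjusted p = 0.758) and -0.22 ± 0.12 for rapamycin to vehicle in mutants (95% interval -0.48 to 0.04, limma adjusted p = 0.520). Neither passed the test. The cells of every library were sorted for the protein of Prom1, so these tests do not compare its level in unsorted kidneys. An antisense gene, Gm16401, shares 424 exon bases with Prom1 at a mean of 32.8 normalized counts, and the strand setting of the counting is unknown here. Prom2, its relative with a similar membrane topology (ENSMUSG00000027376, chromosome 2, 127526473 to 127541467), was near the low end of the tested genes. It had 9.90, 18.0 and 16.54 normalized counts in the controls, 8.06, 13.9 and 14.5 in mutants given vehicle and 9.97, 10.3 and 13.4 in mutants given rapamycin. These groups overlapped, and at this level the mutant to control interval was wide, from -1.10 to 0.57 log2.

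Of the genes of the microvillus core, Vil1 encodes villin, which bundles and severs actin (ENSMUSG00000026175, chromosome 1, 74409376 to 74435559). It had 595, 691 and 716 normalized counts in the controls, 422, 499 and 722 in mutants given vehicle and 586, 732 and 571 in mutants given rapamycin. Mutant vehicle 1 and 2 were below all controls and mutant vehicle 3 above them, so the groups overlapped (-0.32 ± 0.20 log2, SE, 95% interval -0.75 to 0.11, limma adjusted p = 0.696). Usp37, on the other strand, shares 49 exon bases with Vil1 at a mean of 1983 normalized counts, so some reads of Vil1 may be uncertain. Ezr (ENSMUSG00000052397, chromosome 17, 6738041 to 6782784) had 6849.5, 9122 and 9345 normalized counts in the controls, 7436, 7902 and 10217 in mutants given vehicle and 7235, 9360.1 and 8645 in mutants given rapamycin. Its mutant to control difference was 0.01 ± 0.16 log2 (95% interval -0.35 to 0.38, limma adjusted p = 0.995).

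Cdhr2 and Cdhr5 encode the protocadherins that bind each other between microvillus tips. Cdhr2 (ENSMUSG00000034918, chromosome 13, 54701461 to 54736662) had 307, 416 and 532 normalized counts in the controls, 319, 409 and 544 in mutants given vehicle and 398, 468 and 385 in mutants given rapamycin. Cdhr5 (ENSMUSG00000025497, chromosome 7, 141269083 to 141276786) had 118, 222 and 254, then 144, 217 and 264, then 179.5, 178 and 189. Both genes overlapped between all groups, with mutant to control differences of 0.02 log2 (95% interval -0.49 to 0.54) and 0.10 log2 (95% interval -0.55 to 0.76). Within each vehicle group, Vil1, Ezr, Cdhr2 and Cdhr5 each had their lowest count in replicate 1 and their highest in replicate 3. With the replicate number as a block in a fit of these 2 groups, Anpep was again the 1 member that passed (limma adjusted p = 0.000598), beside 7.09% of all genes tested in that fit.

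**Figure D3:**
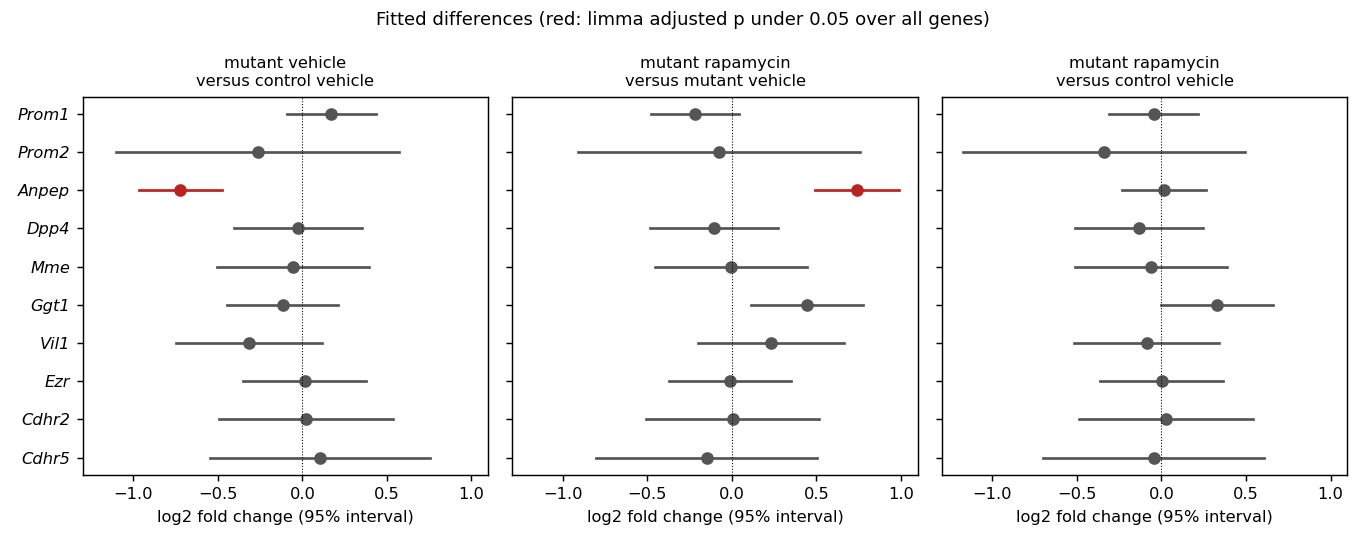
Fitted log2 fold change of each of the 10 genes (points) with its 95% interval (lines) in the 3 comparisons, red where the limma adjusted p was under 0.05. Anpep is red at -0.72 and at 0.74 and lies at 0.02 in the comparison of rapamycin with control libraries.

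The second comparison asked what rapamycin changed in mutants. Of the 10 genes Anpep rose, by 0.74 ± 0.11 log2 (SE, n = 3 per group, 95% interval 0.49 to 0.99, limma adjusted p = 0.0243), which is 1.67 times the mutant vehicle level. Over all genes tested 0.3% passed, and 0.244% passed as higher. The groups did not overlap for 3 of the 10 members, Anpep and Ggt1 higher and Prom1 lower, beside 18.4% of all genes tested. The median of the 10 was -0.01, the same as over all genes tested. The adjusted p of Anpep rose to 0.0535 without control 2, 0.156 without mutant vehicle 2, 0.0619 without mutant vehicle 3, 0.124, 0.132 and 0.0989 without rapamycin 1, 2 or 3, and 0.0919 without both control 1 and rapamycin 2. The fold change stayed between 0.63 and 0.79 over all 18 alternatives. The authors' deposited table gives 0.73 with an adjusted p of 1.57e-06. This comparison shares its mutant vehicle libraries with the first one, so a low value in them enters both.

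The third comparison, of mutants given rapamycin with controls given vehicle, differs in both genotype and treatment. None of the 10 genes passed the test in limma at an adjusted p under 0.05, while 3.24% of all genes tested passed. Before adjustment 0 of the 10 had a limma p under 0.05, whereas 3444 of the 19656 genes tested did. Anpep differed by 0.02 ± 0.11 log2 (SE, 95% interval -0.23 to 0.26, limma adjusted p = 0.964), an interval from 0.852 to 1.20 times the control level. Ggt1 was the 1 member whose libraries did not overlap, beside 23.1% of all genes tested. The median of the 10 was -0.05, beside -0.00 over all genes tested.

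A wider list of other brush border genes was described beside the 10. Its 57 symbols included Tmem27, Nherf1 and Nherf2, which are other names of the listed Cltrn, Slc9a3r1 and Slc9a3r2. The other 54 symbols were all found, and 52 of these genes passed the filter. Between mutant and control vehicle libraries 1 of these 52 fell, between rapamycin and vehicle in mutants 1 rose, and between rapamycin and control libraries 1 rose. Over all genes tested 1.42%, 0.3% and 3.24% passed in these comparisons, in either direction. Their medians were -0.04, 0.08 and 0.01 log2 for the 52, beside -0.01, -0.01 and -0.00 over all genes tested. Mep1b, which encodes the beta subunit of meprin, a metalloprotease of the brush border, was the gene that fell and then rose. It had 86.9, 178 and 201 normalized counts in the controls, 25.2, 24.8 and 27.9 in mutants given vehicle and 129, 117 and 84.6 in mutants given rapamycin. Each mutant vehicle library was below each of the other 6, and control and rapamycin libraries overlapped. The fall was by 2.45 ± 0.31 log2 (SE, limma adjusted p = 0.00314) and the rise by 2.02 ± 0.31 (limma adjusted p = 0.0243). The fall was called whichever of the 9 libraries was left out. The rise was lost with limma-voom (adjusted p = 0.0892) and without control 2, mutant vehicle 2 or 3, or any 1 rapamycin library, up to an adjusted p of 0.172. The other peptidase genes of the list did not pass, among them Enpep, which encodes aminopeptidase A, at 0.36 ± 0.13 log2 in mutant against control vehicle libraries (limma adjusted p = 0.286).

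Pdzk1, a scaffold that holds transporters at the brush border, was the gene that rose between control and rapamycin libraries. It had 2562, 2477 and 2575 normalized counts in the controls, 3539.8, 2916 and 3649 in mutants given vehicle and 4252, 3966 and 3907 in mutants given rapamycin. The 3 groups did not overlap in any pair. Its rise over the controls was 0.67 ± 0.11 log2 (SE, limma adjusted p = 0.0102), and the call was lost without control 2 or rapamycin 1, up to an adjusted p of 0.0622. The mutant to control vehicle difference of Pdzk1 was 0.40 ± 0.11 log2 and did not pass (adjusted p = 0.142). With the replicate number as a block in a fit of the 2 vehicle groups, 6 of the 52 genes passed in place of 1. Over all genes tested 7.09% passed in that fit, against 1.42% without the block. Lower were Mep1b, Scin at -0.81, Xpnpep2 at -0.41 and Calml4 at -0.36. Higher were Pdzk1 at 0.40 and Ptpro at 0.42 (limma adjusted p from 8.4e-05 to 0.0449 over the 6). Ptpro is a podocyte gene in the kidney. It had 530 to 677 normalized counts in the controls, 743 to 885 in mutants given vehicle and 418 to 693 in mutants given rapamycin. Whether its RNA here came from proximal tubule cells was not tested.

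The other 3 sets of the wider list had no gene that passed in the fit without the block. In the villin and gelsolin family, Scin, which encodes the actin-severing protein scinderin, had the smallest p. It had 373, 404 and 476 normalized counts in the controls, 197, 229.8 and 295 in mutants given vehicle and 222, 308 and 331 in mutants given rapamycin. Its mutant vehicle libraries lay below its controls without overlap (-0.81 ± 0.21 log2, SE, limma adjusted p = 0.109). Among ezrin's relatives and their kinases it was the kinase gene Slk, at 0.23 ± 0.13 log2 in mutant against control vehicle libraries (adjusted p = 0.640). Among the partners of the protocadherins it was the scaffold gene Anks4b, at 0.41 ± 0.14 log2 in rapamycin against control libraries (adjusted p = 0.165).

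**Figure D4:**
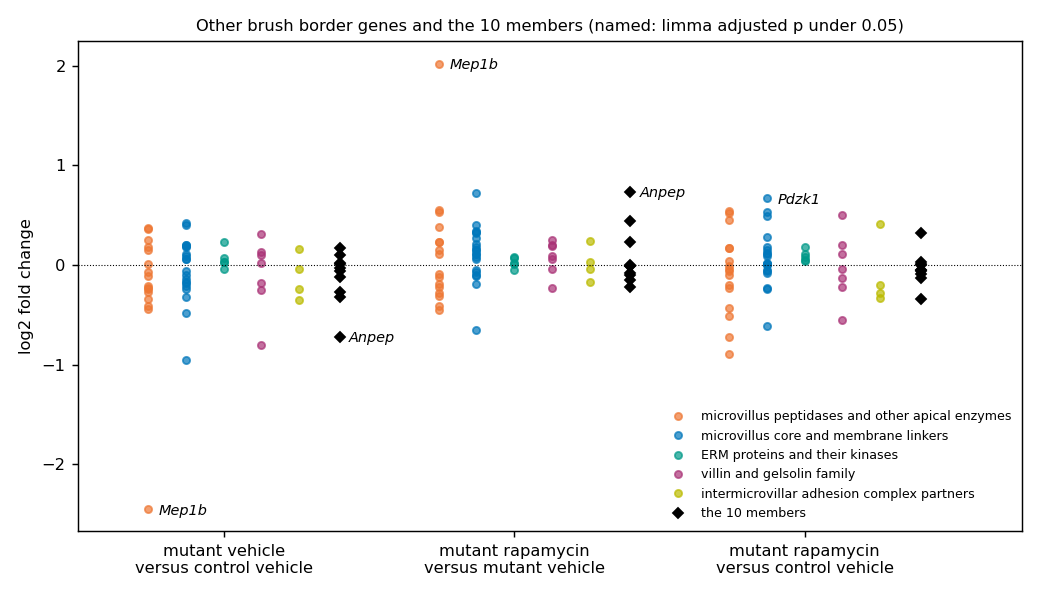
Log2 fold change of the 52 other brush border genes (circles, coloured by set) and the 10 members (black diamonds) in the 3 comparisons, with names where the limma adjusted p was under 0.05. Mep1b lies at -2.45 and 2.02, Anpep at -0.72 and 0.74 and Pdzk1 at 0.67.

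Marker genes of several cell types also differed between these groups. The summed normalized count of 8 ureteric bud and collecting duct markers was 4715 to 5889 in the controls, 2591 to 3116 in the mutant vehicle libraries and 5396 to 6254 in the rapamycin libraries, so this sum was low in the libraries in which Anpep and Mep1b were low. Of these 8 markers 4 fell in the first comparison and 4 rose in the second, among them the water channel gene Aqp2. Of the 5 loop and distal tubule markers tested, 1 passed in the first comparison. This was the claudin gene Cldn19, which fell to 0.414 times the control level (limma adjusted p = 0.0236). It had 410 to 534 normalized counts in the controls, 153 to 289 in mutants given vehicle and 195 to 252 in mutants given rapamycin. Each rapamycin library was thus also below each control. Umod, Slc12a1 and Kcnj1 of this set overlapped between control and mutant vehicle libraries. The transporter gene Slc12a3 had 200.3 to 413 normalized counts in the controls, 53.5 to 119 in mutants given vehicle and 174 to 719 in mutants given rapamycin, and did not pass (limma adjusted p = 0.125 and 0.181 in the first 2 comparisons). The sum of all 6 markers of this set was 4912 to 8073, 4058 to 7709 and 2513 to 5380.4 in the same order of groups, which overlap.

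The sum of 10 proximal tubule markers was 19771 to 25199.9 in the controls, 25537 to 28731 in the mutant vehicle libraries and 33427 to 44900.5 in the rapamycin libraries. Lrp2 made up 38.5% to 59.3% of this sum, and without it the other 9 summed to 9884 to 13124 in the controls, 12091 to 16006 with vehicle in mutants and 16052 to 18279.8 with rapamycin. Control and mutant vehicle libraries then overlapped, and the rapamycin libraries were above both. In the first comparison 0 of these 10 proximal tubule markers passed the limma test, with 6 fold changes above 0 and 4 below. Before adjustment 3 of these 10 had a limma p under 0.05, and 1990 of the 19656 genes tested did. Between control and rapamycin libraries 3 of these proximal tubule markers rose. The sum of 6 nephron progenitor markers was 2975 to 3273 in the controls, 7598 to 9915 in the mutant vehicle libraries and 9679 to 12097 in the rapamycin libraries, with 4 of 6 called higher in the first comparison. The 6 podocyte markers summed to 16262 to 18534, 17594 to 18341 and 11892 to 14581 in these groups. Of these 6, 0 passed in the first comparison by limma, 1 passed as lower in the second and 3 as lower in the third. Over all genes tested 1.42%, 0.3% and 3.24% passed, in either direction. The 6 stromal markers summed to 96564 to 109927, 86585 to 102608 and 139627 to 177083, of which the collagen genes Col1a1 and Col3a1 made up 77.8% to 83.9%. Without these 2 genes the stromal sums were 19470.4 to 24359.6 in the controls, 14822 to 19992 in the mutant vehicle libraries and 23102 to 28562 in the rapamycin libraries. The controls then overlapped both other groups, and the rapamycin libraries were above all mutant vehicle libraries. The 4 endothelial markers summed to 9699.8 to 12712, 10253 to 12758 and 14731 to 19432, so the rapamycin libraries were above all vehicle libraries, and Kdr, a receptor of vascular growth factor, rose between control and rapamycin libraries (limma adjusted p = 0.0183). The leukocyte marker sum was 8351 to 10982, 8799.5 to 18752 and 8366 to 11565 and the erythroid sum 557 to 4144, 559.5 to 1529 and 1232 to 2859.6, which overlap between all groups. Of leukocyte and erythroid markers 0 passed in any comparison by limma, with 2 and 0 at an unadjusted p under 0.05 in the first. The part of these shifts in the values of the 10 genes was not tested.

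**Figure D5:**
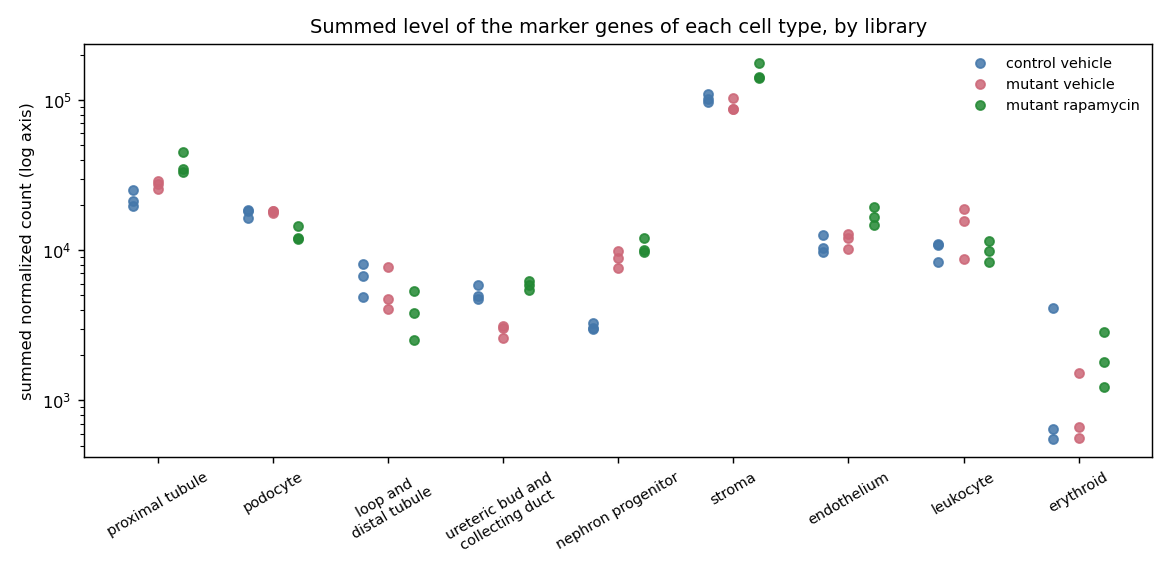
Summed normalized count (log axis) of the marker genes of each of 9 cell types in every library, coloured by group. The collecting duct sum is lowest in the mutant vehicle libraries, at 2591 to 3116, and the nephron progenitor sum is lowest in the controls, at 2975 to 3273.

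The level of Prom1 over the 9 libraries was set beside that of every gene with a mean of at least 100 normalized counts, 12664 in all, as a description. The 5 genes most like it were Ptpn3 (Pearson r = 0.959), Ppfibp1 (0.927), Exoc6 (0.920), Gcnt2 (0.901) and Myof (0.895). Among the members, r with Prom1 was 0.540 for Ezr, 0.496 for Dpp4 and -0.556 for Anpep. The 9 points share the 3 groups and the same size factors.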

How the data were processed

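The authors deposited 1 table of 54838 genes holding read counts, the same counts normalized, and a log2 fold change and p-value per pair of groups. The submitters' processing notes name DESeq2 1.22.1, HTSeq 0.6.0, TopHat2 2.1.1, cutadapt 1.18 and the build GRCm38. Annotation release and strand setting were not given in the sources used here. Of these genes 6252 carry a mark in place of a count, so the deposited columns were handled as normalized values. A deposited normalized count is the raw count over 1 size factor per library (0.874 to 1.19), with a largest relative departure of 5.3e-15.

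Values were tested as log2(normalized count + 1) with limma 3.58.1 (trended, robust variance) in R 4.3.3, for the 19656 genes with a mean of at least 5, in 1 fit of 3 group means over 9 libraries. A fold change on this scale understates that of low genes. The script was tested on simulated data. Genes were called at a Benjamini-Hochberg adjusted p under 0.05. Read depth bears on counting error only. Exon lengths come from GENCODE M21 (98.7% of 54809 shared identifiers had the same coordinates). Sequences are RefSeq's.

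The members, lists and tests were chosen with earlier results of these data known. By plan, genes named were the 10 members, the other brush border genes called in any comparison or with the smallest p in a set without a call, and the 5 genes most correlated with Prom1. Enpep, Xpnpep2, Calml4, Ptpro, Car4 and Svil were named after their values were seen. Single cell type markers, such as Aqp2, Cldn19, Slc12a3 and Kdr, were named from the marker lists, outside that rule. Same-numbered control and mutant vehicle libraries deviated together (correlations 0.428, 0.137 and 0.445), whereas rapamycin libraries did not pair by number (-0.338 to 0.218 with controls, -0.134 to 0.0768 with mutant vehicle). The blocked fit of the 2 vehicle groups, upper-quartile scaling and library-total scaling were added after seeing the data.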

Additional observations from a re-analysis of the deposited data

How the results depend on the processing

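The direction of Anpep was kept in all 19 alternatives for mutant against control vehicle, with the call kept in 16, and in all 18 for rapamycin against vehicle in mutants, with the call kept in 11. Members called went from 1 to 0 in the first comparison with only the 2 groups compared, and leaving out 1 library gave 0 to 1 in both. It was also 0 in the second without both control 1 and rapamycin 2. In the third comparison 0 members were called in all 18 alternatives. The cause of these losses was not tested, beyond that such fits hold fewer libraries. Other brush border genes called in the first comparison numbered 2 with the replicate block over all 9 libraries (Mep1b and Scin) and 6 with it in the 2 vehicle groups, and stayed at 1 without any 1 library. In the second they were 0 with limma-voom and 0 to 1 without 1 library. In the third they were 4 with the replicate block (Car4, Pdzk1, Svil and Xpnpep2) and 0 to 4 without 1 library.

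All genes called numbered 279 in the first comparison, 99 with only the 2 groups, 1398 with the replicate block in those groups and 81 to 336 without 1 library. In the second they numbered 59, 206 with the replicate block, 22 without both control 1 and rapamycin 2, and 0 to 200 without 1 library. In the third they numbered 637, 1090 with the replicate block and 175 to 1131 without 1 library. Where the count was 0 (without rapamycin 2), 1825 genes had an unadjusted p under 0.05 in limma. The replicate block over all 9 libraries changed no call among the 10 members.

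No called fold change changed sign. Among fold changes that did not pass, 52 changed sign under an alternative, with values from -0.26 to 0.17 there. Without both control 1 and rapamycin 2, mutant against control vehicle gave -0.13 for Ezr, -0.18 for Cdhr2 and -0.23 for Cdhr5, rapamycin against mutant vehicle -0.081 for Cdhr2, and rapamycin against control -0.22 for Ezr and -0.26 for Cdhr2. With library-total scaling Dpp4 was 0.028 in the first comparison, Cdhr2 -0.060 in the second and Ezr -0.0090 in the third. With upper-quartile scaling Cdhr2 was -0.0073 in the second, and Anpep -0.0016 and Ezr -0.016 in the third. Leaving out 1 library at a time, the first comparison ranged from -0.14 to 0.062 for Dpp4, -0.22 to 0.10 for Mme, -0.25 to 0.0018 for Ggt1, -0.13 to 0.10 for Ezr, -0.18 to 0.21 for Cdhr2 and -0.23 to 0.35 for Cdhr5. The second ranged from -0.32 to 0.064 for Prom2, -0.26 to 0.061 for Dpp4, -0.23 to 0.15 for Mme, -0.10 to 0.13 for Ezr, -0.18 to 0.20 for Cdhr2 and -0.39 to 0.043 for Cdhr5. The third ranged from -0.095 to 0.046 for Prom1, -0.0033 to 0.042 for Anpep, -0.29 to 0.035 for Dpp4, -0.29 to 0.093 for Mme, -0.14 to 0.11 for Ezr, -0.18 to 0.22 for Cdhr2 and -0.38 to 0.17 for Cdhr5.

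The planned edgeR and DESeq2 tests and TMM scaling were not run, because the columns with marked cells were entered as normalized values. The whole reads behind the normalized counts entered limma-voom. The 95% intervals of Prom2, Cdhr5 and Cdhr2, the members with the fewest counts, span more than 1 log2 unit in the first comparison. Whether depth or other spread sets their width was not tested.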
